A study of Mus musculus with 2 samples.

Results

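The miRNAs described here come from a single X-linked cluster, the mature products of miR-322, miR-503, miR-351, miR-542, miR-450a and miR-450b. All arms and copies with these names were taken from the deposited table, which gave 13 mature entries of 1147 entries in all. Small RNA was sequenced from the jejunal muscle wall (tunica muscularis) of C57BL/6 mice at postnatal day 15. Both groups carried the *smMHC* *Cre*-eGFP transgene, in which the *Myh11* promoter drives *Cre* and eGFP in smooth muscle cells, and in *Dnmt1*-KO mice both floxed *Dnmt1* alleles were deleted by it, while *Dnmt1*-WT littermates kept *Dnmt1*, the maintenance DNA methyltransferase. The strain field of the labels gives Dnmt1lox/lox and the Myh11-cre,-EGFP transgene for both samples. The description of the sample titled WT gives smMHCCre-eGFP/+;Dnmt1-/-, against its title and its genotype field, from which the groups were taken. The genotypes were not checked in the data, since these libraries hold no mRNA. There was 1 library per genotype. Jejunal muscle came from 2 males and 2 females of each genotype, and the methods leave unstated how their RNA was combined into the library. No test between genotypes was therefore possible. Each interval below covers counting error only, and each comparison is between 2 libraries.

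A miRNA hairpin is cut from a longer primary transcript and then into a 5p and a 3p product, either of which can be loaded into Argonaute, where bases 2 to 8, the seed, select target mRNAs. Hairpins of one cluster can be cut from a shared transcript, but each is processed and each product decays separately. miR-322, the mouse counterpart of human miR-424, and miR-503 belong to the extended miR-15/16 family, which is known for repressing cyclins and other cell cycle genes, and both have been studied in the exit of muscle precursors from the cell cycle. The cluster is known as part of a growth programme that is high in the fetus and declines after birth. With 1 age in the data, that decline could not be examined.

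On GRCm38 the 7 hairpins lie on the minus strand at chrX:53047997-53054349, a span of 6353 bases. From 5′ to 3′ the order is *Mir322*, *Mir503*, *Mir351*, *Mir542*, *Mir450-2*, *Mir450-1* and *Mir450b*. *Mir322* and *Mir503* are 200 bases apart, *Mir503* and *Mir351* 630 bases, and *Mir351* and *Mir542* 3767 bases. *Mir450-2* and *Mir450-1* are 54 bases apart, and *Mir450-1* and *Mir450b* 75 bases. In RefSeq, the long noncoding RNA gene *C430049B03Rik* (chrX:53053112-53057190) contains the *Mir322*, *Mir503* and *Mir351* hairpins. In GENCODE M21 the same gene ends upstream of *Mir322*, and no hairpin of the cluster overlaps an exon or intron of another gene.

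The mature sequences of all 13 entries were found in RefSeq (GRCm38.p6) and are 21 to 24 bases long. They are shown because the seeds, in capitals, set which members can be compared with miRNAs from other loci.
miR-322-5p: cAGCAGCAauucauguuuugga
miR-322-3p: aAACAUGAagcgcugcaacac
miR-503-5p: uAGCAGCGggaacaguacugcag
miR-503-3p: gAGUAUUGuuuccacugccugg
miR-351-5p: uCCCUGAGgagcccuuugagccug
miR-351-3p: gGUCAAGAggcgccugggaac
miR-542-5p: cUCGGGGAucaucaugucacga
miR-542-3p: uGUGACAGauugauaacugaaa
miR-450a-5p: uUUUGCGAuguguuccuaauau
miR-450a-2-3p: aUUGGGGAugcuuugcauucau
miR-450a-1-3p: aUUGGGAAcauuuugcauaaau
miR-450b-5p: uUUUGCAGuauguuccugaaua
miR-450b-3p: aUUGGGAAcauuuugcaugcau

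The 5p and 3p products of the cluster fall into unlike seeds. miR-322-5p has the seed of miR-15 and miR-16, miR-503-5p shares its first 6 bases, bases 2 to 7, and miR-351-5p has the seed of miR-125a and miR-125b. miR-450a-1-3p and miR-450b-3p share a seed with each other and their first 18 bases. The other 9 members, miR-503-5p among them, had no listed entry in RefSeq with the same bases 2 to 8.

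Each library's read counts were scaled by 1 common factor in the deposited table, and 1 unit is close to 1 read. The totals were 5741906 for WT and 4754677 for KO. A factor that sets the totals equal multiplies every KO/WT ratio by 1.21, and ratios near 1 depend on this choice. All values are on the deposited scale unless the equal totals are named. The smooth muscle miRNA miR-143-3p, a defining marker of the labelled tissue, took 30.9% of the WT and 25.9% of the KO library.

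Summed over its 13 products, the cluster was at nearly the same level in both libraries on the deposited scale only, while its make-up differed. The sum was 18811 in WT and 19018 in KO, a ratio of 1.01 (95% interval 0.991 to 1.03), which was 0.328% of all WT units (0.323 to 0.332%, Wilson) and 0.400% of all KO units (0.394 to 0.406%). With equal totals the ratio was 1.22 (1.20 to 1.25). With the median ratio of entries at a mean of at least 100 set to 1, it was 1.04. How flat the sum is thus depends on the scale. miR-351-5p made up 78.4% of the WT sum (77.8 to 79.0%) and 68.6% of the KO sum (67.9 to 69.2%). The other 12 products together were at 4057 in WT and 5977 in KO, a ratio of 1.47 (1.42 to 1.53).

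**Figure D1:**
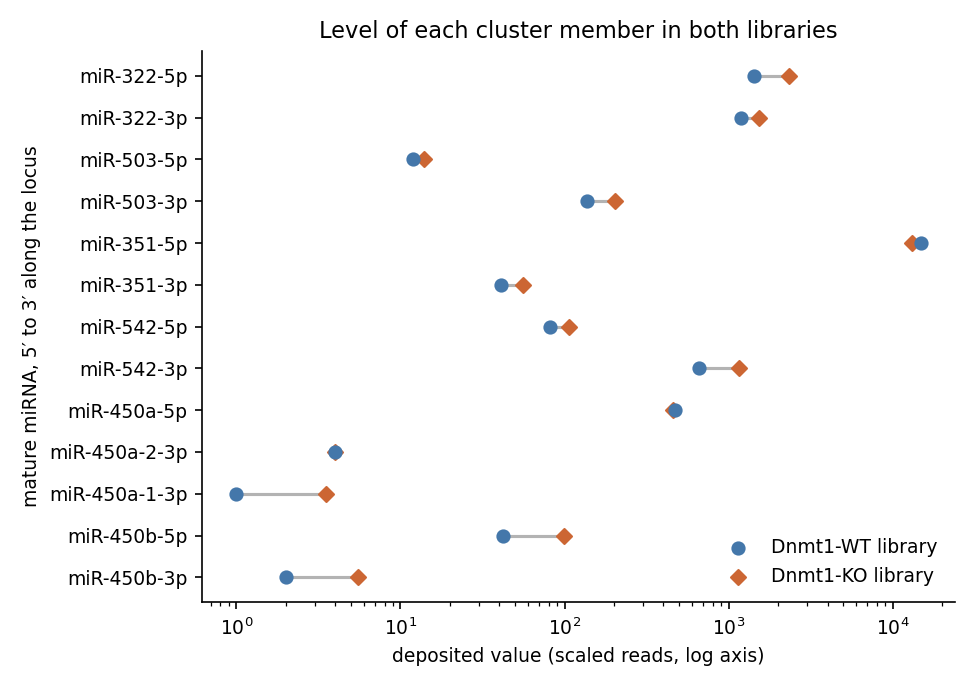
Deposited value (scaled reads, log axis) of each of the 13 members in the *Dnmt1*-WT library (circles) and the *Dnmt1*-KO library (diamonds), from the 5′ end of the locus to its 3′ end, 1 library per genotype. miR-351-5p stands highest in both libraries at 14754 and 13041, and the KO value is to the right of the WT value for 10 members.

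Levels within the cluster ran from 1 to 14754 in WT and from 3.5 to 13041 in KO. Every mature product is read whole, so no length correction was made. Capture of a product into a library can differ with its sequence, and this was not corrected. Levels, ranks and shares of unlike products or arms are thus shares of reads and may differ from those of molecules. miR-351-5p ranked 40 of 1147 entries in WT and 42 in KO. miR-322-5p followed at rank 120 in WT and 91 in KO, then miR-322-3p at 132 and 115, and miR-542-3p at 156 and 135. miR-450a-5p ranked 186 and 175. The lowest were the 3p products of the miR-450 hairpins, at 1 to 5.5 units. No member was listed at 0. The order of the 6 members averaging at least 100 was the same in both libraries: miR-351-5p, miR-322-5p, miR-322-3p, miR-542-3p, miR-450a-5p and miR-503-3p.

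Of the 13 members, 10 were higher in the KO library (background 50.3% of all 1147 entries), 2 were lower (background 43.9%) and 1 had equal values. The number at least 2-fold higher was 3 (background 26.7% of all 1147 entries), and none was at least 2-fold lower (background 23.1%). The 3 were miR-450b-5p, miR-450b-3p and miR-450a-1-3p, and the latter 2 rest on under 10 units in either library. A share of 3 in 13 is near the background and was read as no result about the cluster. Of the 10 members averaging at least 10, miR-450b-5p alone was 2-fold higher (background 11.4%) and none 2-fold lower (background 9.94%). Of the 6 averaging at least 100, none was 2-fold higher (background 6.33%) or lower (background 8.86%). With counting error alone as the measure, the interval of the ratio lay above 1 for 5 members (background 16.7%), below 1 for 1 (background 14.6%) and included 1 for 7. Deeply read entries have narrow intervals, and of the 6 members averaging at least 100 the interval lay above 1 for 4 (background 36.7%) and below 1 for 1 (background 41.1%). Equal totals raise every ratio. The interval then lay above 1 for 9 of the 13 members (background 24.1% of all entries), below 1 for none (background 9.5%) and included 1 for 4, and 4 members were at least 2-fold higher (background 31.5%).

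The 10 members averaging at least 10 had a median log2 KO/WT of 0.42, beside 0.02 over the 531 such entries of the table that were above 0 in both libraries. At a mean of at least 100 the median was 0.47 over 6 members, beside -0.03 over 313 entries. The SD of the log2 ratio was 0.41 over those 6 members and 0.76 over the 313 entries. Members of a cluster can come from shared transcripts, and both arms come from 1 hairpin, so their values are not independent of each other.

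At the 5′ end, both products of miR-322 were higher in the KO library. mmu-miR-322-5p, a known repressor of cell cycle genes, was at 1421 in WT and 2341 in KO, a ratio of 1.65 (1.54 to 1.76). mmu-miR-322-3p, the product of the other arm, was at 1186 in WT and 1539 in KO, a ratio of 1.30 (1.20 to 1.40). These intervals do not overlap, and both lie above 1 on either scale. With equal totals the ratios were 1.99 (1.86 to 2.13) and 1.57 (1.45 to 1.69).

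miR-503 lies next to miR-322 and was an order of magnitude less abundant. Its 3p product was at 136.4 in WT and 202.4 in KO, a ratio of 1.48 (1.19 to 1.86). mmu-miR-503-5p, the product that is usually described as the functional one, was at 12 in WT and 14 in KO. At this depth the interval of its ratio ran from 0.501 to 2.76, and no difference was detectable.

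mmu-miR-351-5p was the abundant product on which the cluster sum rests. It was at 14754 in WT and 13041 in KO, a ratio of 0.884 (0.863 to 0.905). This was the only member whose interval lay below 1, and with equal totals the ratio became 1.07 (1.04 to 1.09), so its direction depends on the scale. miR-351-3p was at 41.1 in WT and 55.8 in KO, a ratio of 1.36 (0.891 to 2.08).

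miR-542-3p, known for repressing the apoptosis inhibitor survivin, was at 660.9 in WT and 1151 in KO, a ratio of 1.74 (1.58 to 1.92). miR-542-5p was at 81.2 in WT and 106.7 in KO, a ratio of 1.31 (0.975 to 1.78). Of the 6 products averaging at least 100, miR-542-3p had the highest ratio, followed by miR-322-5p, although their intervals overlap.

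The miR-450 hairpins at the 3′ end did not share a ratio, although they are the closest neighbours of the cluster. miR-450a-5p, cut from both the *Mir450-1* and the *Mir450-2* hairpin and not assignable to either, was at 469.3 in WT and 454.7 in KO, a ratio of 0.969 (0.850 to 1.10). miR-450b-5p was at 42.1 in WT and 99.7 in KO, a ratio of 2.37 (1.64 to 3.48). These intervals do not overlap, so the ratio of miR-450b-5p differed by more than counting error from that of the product of the *Mir450-1* and *Mir450-2* hairpins together. With equal totals the ratios were 1.17 and 2.86, and the interval of miR-450a-5p (1.03 to 1.33) then lay above 1.

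The remaining 3p products of miR-450 were near the limit of detection. miR-450a-2-3p was at 4 in both libraries. miR-450a-1-3p was at 1 in WT and 3.5 in KO, and miR-450b-3p at 2 and 5.5. The KO values of the last pair are not whole reads (3.51 and 5.52 implied reads), and how reads that match both of these like sequences were assigned is not given in the sources used here. Their levels are uncertain, and their intervals (0.317 to 179 and 0.472 to 28.4) include 1.

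**Figure D2:**
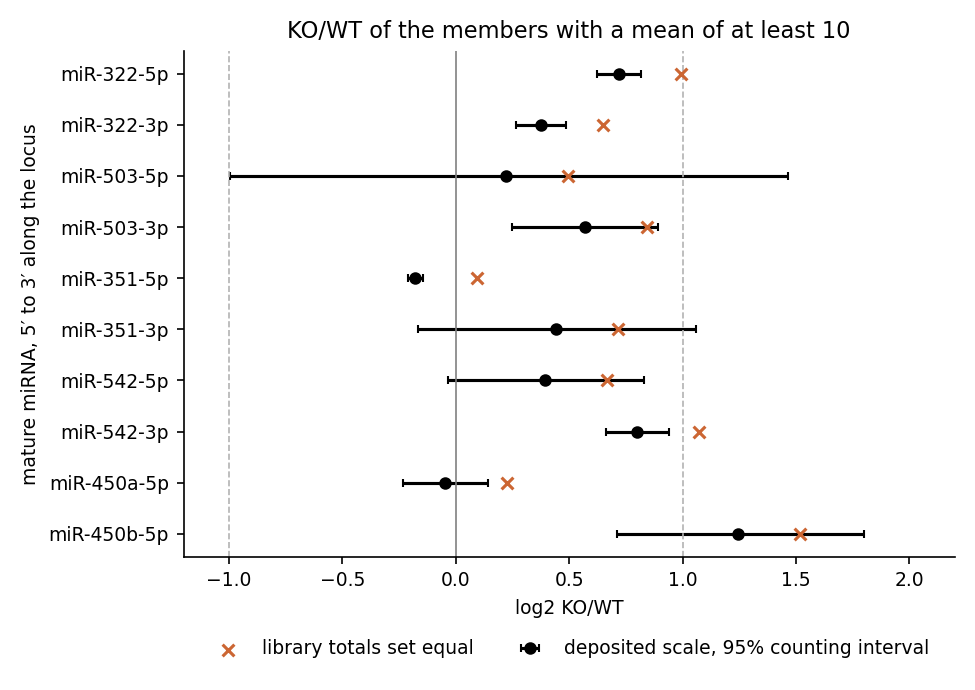
The log2 KO/WT of the 10 members averaging at least 10 on the deposited scale (circles, with 95% counting intervals) and with library totals set equal (crosses), in their order along the locus. Dashed lines mark 2-fold. miR-351-5p and miR-450a-5p are the 2 members below 0 on the deposited scale, and all 10 are above 0 with equal totals, as were 65.9% of all entries averaging at least 10.

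Summed per hairpin name, the ratios followed no order along the locus. They were 1.49 (1.42 to 1.56) for miR-322, 1.46 (1.18 to 1.81) for miR-503, 0.885 (0.865 to 0.906) for miR-351, 1.69 (1.55 to 1.86) for miR-542, 0.974 (0.855 to 1.11) for miR-450a and 2.39 (1.66 to 3.47) for miR-450b. miR-322, miR-503 and miR-542 had overlapping intervals. miR-351, which lies between miR-503 and miR-542 and within the same RefSeq gene as miR-322 and miR-503, stood apart from all 3. A difference between members does not depend on the scaling, which moves every ratio by the same factor.

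To set this spread beside other loci, hairpins on 1 strand within 10 kb of each other were grouped. The log2 ratios of the cluster ranged over 0.98 across 6 products with a mean of at least 100. The same range in 12 other groups with at least 3 such products ran from 0.15 to 2.56, with a median of 0.95, and 6 of the 12 were wider. A range grows with the number of products, so the SD was also compared: it was 0.41 in the cluster and larger in 7 of the 12 groups. The standing of the cluster among groups depended on the minimum mean. At a mean of at least 10, 7 of 25 other groups had a wider range and 17 a larger SD, and at a mean of at least 1000, 2 of 5 had a wider range and 1 a larger SD. The 16 other entries from the X chromosome with a mean of at least 100 and above 0 in both libraries had a median log2 ratio of -0.04, with 8 higher and 8 lower.

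**Figure D3:**
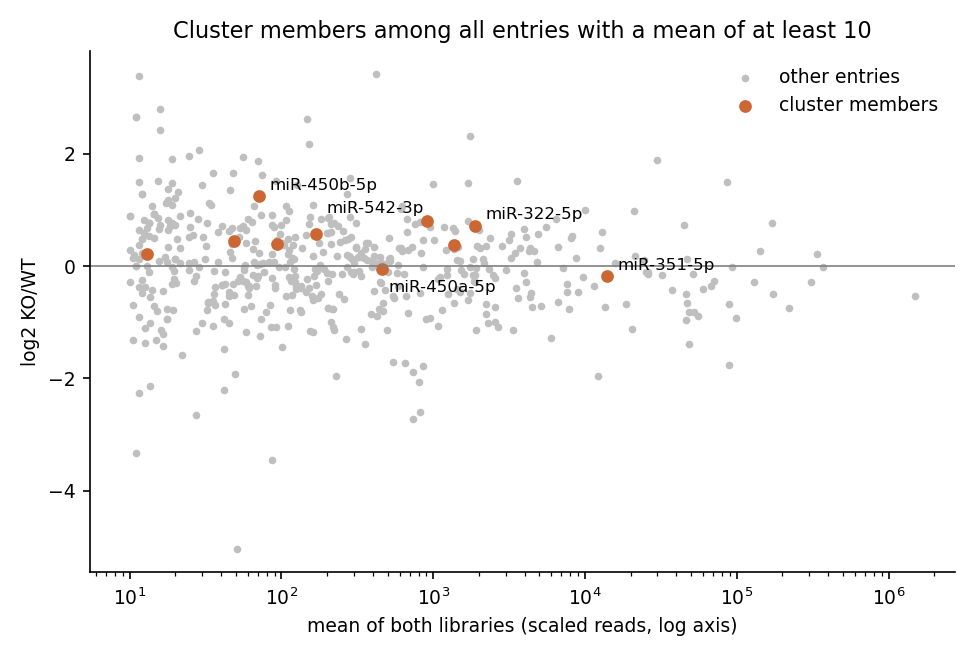
The log2 KO/WT against the mean of both libraries (scaled reads, log axis) for entries averaging at least 10 that were above 0 in both libraries. The 10 cluster members (large points) lie between -0.18 and 1.24, within the scatter of the other entries (small points).

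In reads, the arms of the hairpins were unequal, and the dominant arm of each hairpin name was the same in both libraries. miR-351, miR-450a and miR-450b gave mostly 5p products: the 5p share was 99.7% in WT and 99.6% in KO for miR-351, 98.9% and 98.4% for miR-450a, and 95.5% and 94.8% for miR-450b. miR-503 and miR-542 gave mostly 3p products, with a 5p share of 8.09% in WT (95% Wilson interval 4.68 to 13.6%) and 6.47% in KO (3.90 to 10.6%) for miR-503, and of 10.9% (8.89 to 13.4%) and 8.49% (7.07 to 10.2%) for miR-542. In reads, miR-503-3p exceeded miR-503-5p 11.4-fold in WT and 14.5-fold in KO.

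miR-322 was the hairpin with both arms at like levels. Its 5p share was 54.5% in WT (52.6 to 56.4%) and 60.3% in KO (58.8 to 61.9%), an odds ratio of 1.27 (exact 95% interval 1.15 to 1.41). This interval excluded 1, as did that of miR-351, with an odds ratio of 0.651 (0.424 to 0.992) that rests on 41 and 56 reads of the 3p product. The intervals of the other 4 hairpin names included 1, and the 6 intervals were not adjusted for their number. The shift of miR-322 between arms, 0.35 log2 units, was below the median of 0.49 over the 62 hairpins of the table with both arms at a mean of at least 100, of which 42 had a larger one.

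**Figure D4:**
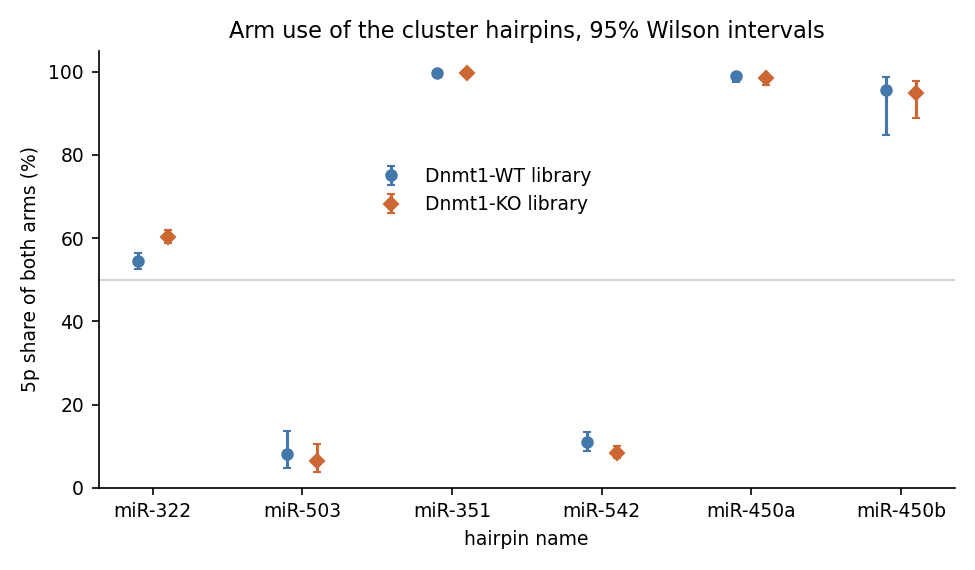
Share of the 5p product among the reads of both arms (%) for each hairpin name in the *Dnmt1*-WT library (circles) and the *Dnmt1*-KO library (diamonds), with 95% Wilson intervals. miR-322 is near the even split, miR-503 and miR-542 are under 15%, and miR-351, miR-450a and miR-450b are above 90%.

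The hairpins of miR-322 and miR-503 are shown with both mature products in capitals, since the neighbours lie 200 bases apart and differ in their use of arms. They lie at chrX:53054255-53054349 and chrX:53053984-53054054, minus strand, GRCm38.p6.
Mir322: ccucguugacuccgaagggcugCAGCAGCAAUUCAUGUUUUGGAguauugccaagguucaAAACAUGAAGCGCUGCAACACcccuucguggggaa
Mir503: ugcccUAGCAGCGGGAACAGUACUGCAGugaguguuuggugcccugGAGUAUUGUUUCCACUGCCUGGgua

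Both members with seed relatives elsewhere in the genome had a higher KO/WT ratio than those relatives. The miR-15/16 relatives are given with the seed in capitals, because a shared seed means a largely shared set of predicted targets.
miR-16-5p: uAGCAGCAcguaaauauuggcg
miR-195a-5p: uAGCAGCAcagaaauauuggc
miR-15b-5p: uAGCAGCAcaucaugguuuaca
miR-497a-5p: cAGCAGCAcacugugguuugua
miR-15a-5p: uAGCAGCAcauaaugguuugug

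These 5 miRNAs, from chromosomes 3, 11 and 14, were each lower in the KO library on the deposited scale, whereas miR-322-5p was higher. Of all 1147 entries 43.9% were lower, and of entries averaging at least 100 the interval lay below 1 for 41.1%. On each of these chromosomes the hairpins are neighbours, and miR-16-5p comes from both chromosomes 3 and 14, so the 5 values are not independent. miR-16-5p, the most abundant, was at 108958 in WT and 67965 in KO, a ratio of 0.624 (0.618 to 0.630). miR-195a-5p was at 4137 and 3788, a ratio of 0.915 (0.876 to 0.957). miR-15b-5p was at 1671 and 1510, a ratio of 0.904 (0.842 to 0.969). Their ratios were closest to 1 in the family outside the cluster, and with equal totals both lay above 1, at 1.11 and 1.09. miR-497a-5p was at 1677 in WT and 1063 in KO, a ratio of 0.634 (0.587 to 0.685), and miR-15a-5p at 871.5 and 490.6, a ratio of 0.563 (0.503 to 0.629). The interval of miR-322-5p lay above those of all 5, whatever the scaling.

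The reads that carry the miR-15/16 seed were thus fewer in the KO library, and miR-322-5p was a larger part of them. Over the 6 entries with bases 2 to 8 in common the sum was 118735 in WT and 77157 in KO, a ratio of 0.650 (0.644 to 0.656). With equal totals it was 0.785. Most of both sums was miR-16-5p. miR-322-5p made up 1.20% of the WT sum (1.14 to 1.26%) and 3.03% of the KO sum (2.92 to 3.16%). miR-503-5p, whose base 8 differs, added 12 and 14 units.

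The seed of miR-351-5p is that of miR-125a and miR-125b, the vertebrate counterparts of the nematode developmental timing miRNA lin-4. Beyond the seed the sequences differ from miR-351-5p.
miR-125a-5p: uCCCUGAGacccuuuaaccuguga
miR-125b-5p: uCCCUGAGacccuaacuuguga

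miR-125a-5p was at 129305 in WT and 68521 in KO, a ratio of 0.530 (0.525 to 0.535). miR-125b-5p was at 61019 and 31311, a ratio of 0.513 (0.506 to 0.520). Both ratios lay below that of miR-351-5p, whatever the scaling. miR-351-5p made up 7.19% of the reads with this seed in WT (7.08 to 7.31%) and 11.6% in KO (11.4 to 11.7%), within a sum of 205077 in WT and 112873 in KO. The ratio of the sums was 0.550, or 0.665 with equal totals.

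**Figure D5:**
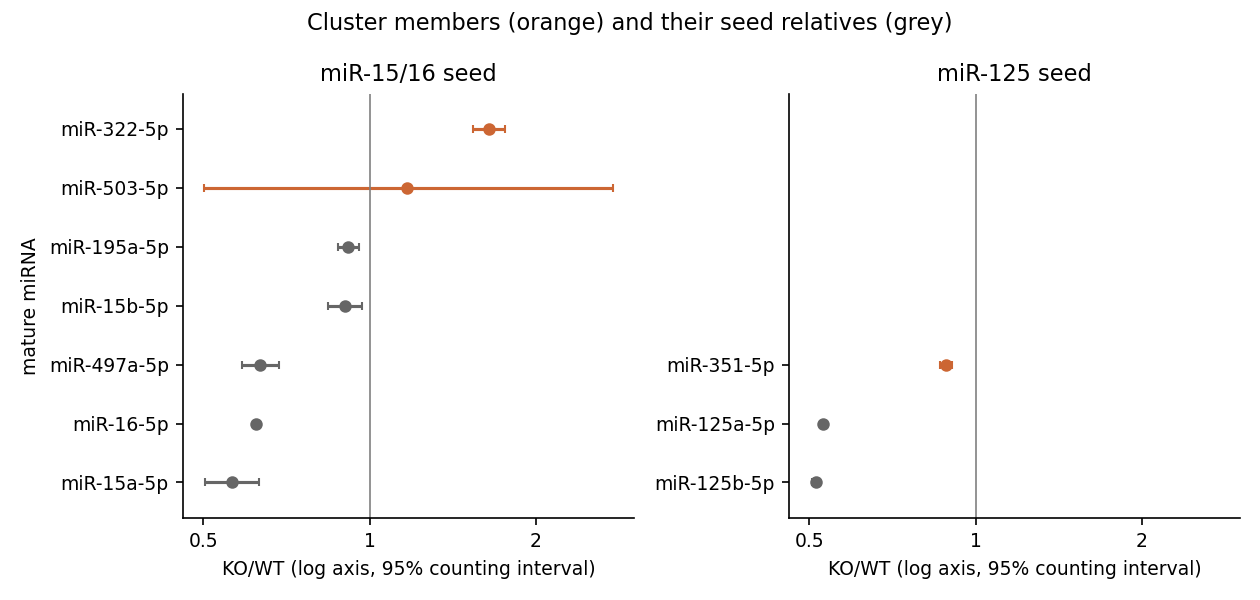
KO/WT ratio (log axis, 95% counting intervals) of the cluster members with the miR-15/16 or the miR-125 seed (orange) and of their seed relatives from other loci (grey), on the deposited scale. miR-322-5p at 1.65 and miR-351-5p at 0.884 lie to the right of every relative in their panel.

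The tissue is a mixture of cells, and in bulk RNA fewer cells of a type and less RNA per cell cannot be told apart. Marker miRNAs of several cell types also differed between the libraries. All 4 smooth muscle markers (miR-143-3p, miR-145a-5p, miR-133a-3p and miR-1a-3p) were lower in KO, with a summed value of 2189741 in WT and 1438044 in KO. All 5 leukocyte markers were higher, from 1676 to 4843 in sum, as were all 4 red cell markers, from 12745 to 47217. Most of the red cell sums was miR-486a-5p, at 12592 in WT and 46756 in KO. Both endothelial markers, the arms of miR-126a, were higher, from 10080 to 14282. Both arms of miR-142a and of miR-144 were also listed, so the markers of a type are not all independent. Of all 1147 entries, 50.3% were higher and 43.9% lower in KO. Of 8 epithelial markers, 4 were higher and 4 lower, with sums of 14503 and 18129, and all 8 were higher with equal totals. None of these markers was at 0 in either library. Their part in the ratios of the cluster and of its seed relatives was not tested.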

How the data were processed

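Small RNA of the jejunal tunica muscularis was isolated with a mirVana kit, and 1 TruSeq Small RNA library per genotype was sequenced by a commercial provider. Per the labels, the submitters' processing notes name Bowtie and build mm10. The miRNA database release, the handling of reads that match several miRNAs and the scaling are not given in the sources used here. The deposited values, given to 1 decimal, are scaled read counts. The scaling was worked out from the values: 88.65% of 229 WT values and 91.13% of 248 KO values from 20 to 300 were whole multiples (within 0.06) of 1.00284 and 0.99718, and dividing by these steps gave 5725645 and 4768123 implied reads. The authors' fold change column was not used.

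Ratios were KO over WT of the deposited values. Their 95% intervals are exact (Clopper-Pearson) binomial intervals from implied reads, and shares have Wilson intervals. Without molecular identifiers a read is not an independent molecule, and the intervals cover counting error only and say nothing of animals. No p-value was computed. A value of 0 allows up to 3 reads (5.24e-05% of WT, 6.29e-05% of KO). The background counts entries listed at 0 in 1 library, and the medians over all entries leave them out. Seeds were read from RefSeq mature sequences, found for 918 of 1080 mature entries. Of miRNAs outside the cluster, the text names seed relatives of members averaging at least 100, and marker miRNAs from a list. The members and lists were chosen with earlier results of these data known. Step search and intervals were tested on simulated data. Python 3.11.15, SciPy 1.17.1 and pandas 2.3.3 were used.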

Additional observations from a re-analysis of the deposited data

How the results depend on the processing

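The summed KO/WT ratio of the cluster, 1.01 on the deposited scale, was 1.22 with equal library totals, 1.14 with equal totals without miR-143-3p, 1.04 with the median of entries at a mean of at least 100 set to 1, and 1.47 without miR-351-5p. The number of members at least 2-fold higher was 3 of 13, and became 1 with a pseudocount of 10, 1 of 10 at a mean of at least 10 and 0 of 6 at a mean of at least 100, settings that shrink or drop low members by construction. It was 4 of 13 with equal totals, where 31.5% of all entries were 2-fold higher. No member was 2-fold lower under any setting tried. The range of log2 ratios, 0.98, was 1.42 at a mean of at least 10, where miR-450b-5p enters. Equal totals turned miR-351-5p to 1.07 and miR-450a-5p to 1.17, while equal totals without miR-143-3p left miR-351-5p at 0.995. The median log2 ratio stayed within 1 SD of the members, from 0.37 to 0.69, the latter with equal totals, where the median over all such entries was 0.29, and the shares of seed families and of 5p products within their counting intervals. No paired analysis was possible because there is 1 library per genotype, and no replicate could be left out. Depth limits the products under 20 units, miR-503-5p and the 3p products of miR-450.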
